A study of Mus musculus with 6 samples.

Results

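The genes described here are the vascular endothelial growth factor (VEGF) family as expressed in a mouse angiosarcoma line: 4 ligands (Vegfa, Vegfb, Vegfc and Pgf), 3 receptor tyrosine kinases (Flt1, Kdr and Flt4) and the neuropilins Nrp1 and Nrp2. These 9 members were chosen by symbol from the table of raw counts, where each matched 1 of 55401 mouse Ensembl identifiers. ADC106 is an angiosarcoma line, that is, a line from a malignant tumour of the cells that line vessels. Its cells were transfected with 12.5 nM of a microRNA mimic (a synthetic duplex that stands in for the microRNA), and poly(A) RNA was sequenced on day 3. The control group received the NC mimic and is labelled WT in genotype. The other group received the miR-497 mimic and is labelled miR-497 overexpression, and there was no other difference in the labels. Each group had 3 libraries from this 1 line, with total counts between 25777676 and 36159499. The labels do not say whether libraries of a group came from separate cultures, so p-values measure the spread between these libraries, which may be technical. Mature microRNAs are not captured by poly(A) libraries, so the mimic itself was not followed.

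VEGF ligands are secreted dimers that bind receptor tyrosine kinases on endothelial cells. Vegfa binds the receptors encoded by Flt1 (VEGFR1) and Kdr (VEGFR2), Vegfb and Pgf bind the Flt1 product, and Vegfc binds the product of Flt4 (VEGFR3) and, once processed, that of Kdr. Kdr carries most of the signal for endothelial growth and permeability, Flt1 binds ligand tightly with weak kinase activity and also makes a soluble decoy form, and Flt4 is best known in lymphatic vessels. Neuropilins lack a kinase of their own and act as co-receptors for VEGF ligands and for class 3 semaphorins. A microRNA guides Argonaute to transcripts that pair with its seed, and pairing in the 3' UTR usually lowers the transcript. Vegfa has long been listed as a target of the miR-15/16 family, to which miR-497 belongs by its seed.

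The mature sequences show what the mimic shares with that family, with bases 2 to 8 (the seed) in capitals. They are RefSeq sequences of build GRCm38.p6, printed 5′ to 3′, and miR-497a-5p lies at chr11:70234730-70234751 on the plus strand. The sequence of the synthetic mimic itself was not given in the sources used here.
mmu-miR-497a-5p: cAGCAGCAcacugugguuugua
mmu-miR-195a-5p: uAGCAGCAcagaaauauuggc
mmu-miR-15a-5p: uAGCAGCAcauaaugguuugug
mmu-miR-16-5p: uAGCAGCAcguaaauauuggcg

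Matches to this seed were searched on the sense strand of GENCODE M21 transcripts (GRCm38) as TGCTGCT (7mer-m8), TGCTGCTA (8mer, which contains both 7mers) and GCTGCTA (7mer-A1). The 6mer inside them, GCTGCT, was recorded separately. In the longest annotated 3' UTR, 3 of the 9 members held a 7mer or 8mer: Vegfa an 8mer, Kdr and Flt1 a 7mer-m8 each. Among 12860 tested genes with a 3' UTR, 28.1% held a 7mer or 8mer and 4.61% an 8mer. The 3 matches are shown with their flanks, 30 bases each, the match in capitals. They lie at chr17:46018589-46018618 for Vegfa, chr5:75934360-75934389 for Kdr and chr5:147636534-147636563 for Flt1, each on the minus strand and in an exon of its gene.
Vegfa 8mer: gattcgccattttcttatatcTGCTGCTAa
Kdr 7mer-m8: ctcctggaaatcacgagagaggTGCTGCTt
Flt1 7mer-m8: gtgtttattttgtggctttataTGCTGCTt

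The Vegfa match began at base 261 of a 3' UTR of 1865 bases and was present in 3 of 4 annotated protein-coding transcripts with a 3' UTR. In Kdr it began at base 56 of 1596. In Flt1 the match was in 1 of 2 such transcripts, ENSMUST00000110529, whose coding sequence of 2067 bases is shorter than the 4002 bases of ENSMUST00000031653. The 3' UTR of that longer transcript, 2616 bases, held 2 6mers and no longer match. For Nrp2, the longest 3' UTR of 3325 bases held a 6mer, while 4 other transcripts with a 3' UTR of 3058 bases each held a 7mer or 8mer. Gene counts add up all transcripts of a gene, so none of these forms could be followed on its own.

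**Figure D1:**
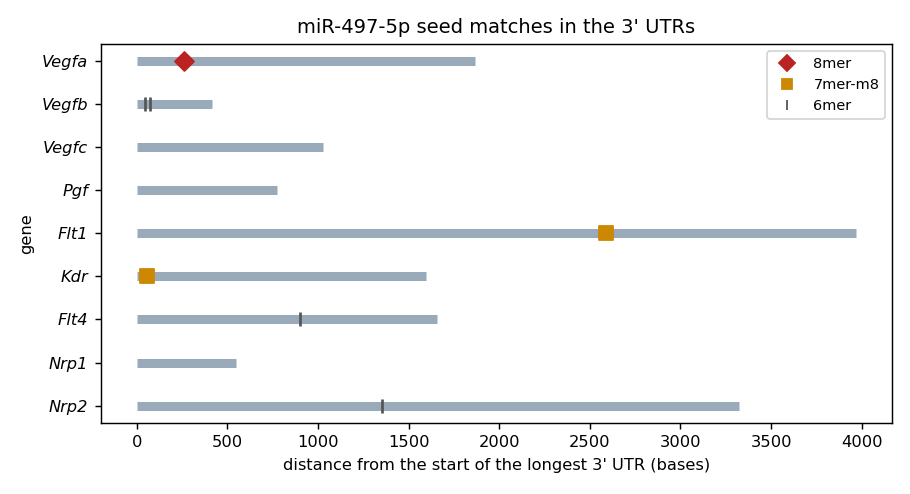
Matches to the miR-497-5p seed in the longest annotated 3' UTR of each gene. Bars are 3' UTRs, the x axis is the distance in bases from the start of the 3' UTR, and symbols mark 8mers, 7mers and 6mers. Vegfa holds the 8mer at base 261, and Vegfc, Pgf and Nrp1 hold no match.

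Vegfb carried 2 6mers in its 3' UTR of 417 bases and a 7mer-m8 in its coding sequence. A 7mer or 8mer in the coding sequence was found for 38.1% of the same tested genes, read from the transcript with the longest 3' UTR. In that transcript Vegfc, Kdr and Flt4 also carried 1 coding match each, and for Nrp2 the 4 transcripts with a 3' UTR of 3058 bases carried 1 each. Of these other genes, Vegfc and Nrp2 rose with miR-497, and Kdr and Flt4 did not pass the test described below. The Vegfb matches are printed because its transcript showed the largest fall among the members. Whether these Vegfb matches relate to that fall was not tested. They lie on the minus strand at chr19:6982836-6982865 and chr19:6982810-6982839 for the 6mers and chr19:6987382-6987411 for the coding match, which begins at base 23 of the 624 coding bases.
Vegfb 6mer, first: gccggaagccgcgaaagtgacaaGCTGCTt
Vegfb 6mer, second: gctttccagactccacgggcccgGCTGCTt
Vegfb coding 7mer-m8: atgagccccctgctccgtcgccTGCTGCTt

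With the miR-497 mimic the VEGF ligands split in direction. Vegfa and Vegfb each fell by more than 2-fold, while Vegfc and Pgf each rose by somewhat less than 2-fold. The receptor gene Flt1 fell, the neuropilins rose, and Kdr and Flt4, by far the more abundant receptor transcripts, did not pass the test. Of the 9 members, which all passed the filter on low counts, 4 were higher and 3 lower past the threshold of 0.05 (edgeR quasi-likelihood test with p-values adjusted by Benjamini-Hochberg over 14661 genes). Over all tested genes, 23.8% were called higher and 26.0% lower, so that 49.8% were called in either direction. The median log2 fold change was 0.0093 for the members and -0.019 for all tested genes. Levels below are CPM, that is counts per 1000000 counts of a library whose size was corrected by TMM, and fold changes are miR-497 over NC.

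Vegfa (ENSMUSG00000023951, chr17:46016993-46032369, GRCm38), the principal driver of vessel growth, was at 22.1, 20.5 and 19.4 CPM in the NC libraries, given in the order of their numbers, and at 9.79, 9.47 and 8.07 CPM with miR-497. Every miR-497 library lay below every NC library. The means were 20.7 ± 1.37 and 9.11 ± 0.914 CPM (SD, n = 3), which gave a fold change of -1.18 on the log2 scale (SE 0.107; adjusted p = 1e-07 in edgeR), or 2.27-fold lower. Of all tested genes, 4.15% had a lower log2 fold change. A call of at least 2-fold lower was made for 5.19% of tested genes, and Vegfa and Vegfb were the members among them.

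Vegfb (ENSMUSG00000024962, chr19:6982473-6987651), a ligand of the Flt1 product linked to cell survival and metabolism more than to vessel sprouting, had 15.6, 17.7 and 14.4 CPM with NC and 7.44, 5.95 and 4.07 CPM with miR-497. The groups did not overlap, and miR-497 library 3 was the lowest. The log2 fold change was -1.46 (SE 0.168; adjusted p = 1.7e-06 in edgeR), 2.75-fold lower. The spread was wide beside the level, at 5.82 ± 1.69 CPM with miR-497 (SD, n = 3) on 124 to 189 counts.

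Vegfc (ENSMUSG00000031520, chr8:54077606-54187096), the lymphatic growth factor, moved the other way. Its level was 12.97, 13.3 and 13.1 CPM with NC and 26.3, 26.3 and 24.8 CPM with miR-497. Both groups were tight and lay apart. The log2 fold change was 0.98 (SE 0.0853; adjusted p = 7.1e-08 in edgeR), 1.97-fold higher.

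Pgf (ENSMUSG00000004791, chr12:85166635-85177790), the placental growth factor, had 28.9, 35.1 and 31.6 CPM with NC and 52.9, 56.2 and 60.1 CPM with miR-497. The lowest miR-497 library was well above the highest NC library. The log2 fold change was 0.82 (SE 0.0812; adjusted p = 2.9e-07 in edgeR), 1.77-fold higher. Neither the 3' UTR of Vegfc (1028 bases) nor that of Pgf (776 bases) held a seed match.

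**Figure D2:**
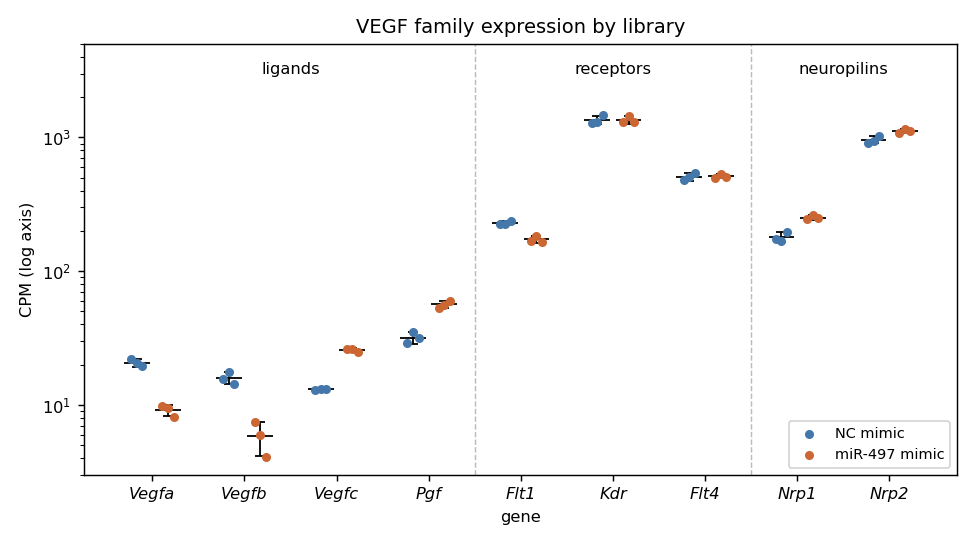
Level of each VEGF family gene in CPM (log axis) in the 3 NC mimic and 3 miR-497 mimic libraries. Points are libraries, horizontal bars are group means and error bars are SD. Vegfa and Vegfb lie lower, and Vegfc and Pgf higher, in each miR-497 library than in any NC library.

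To compare levels between genes, CPM were divided by the length of all exons of the gene in kb (CPM per kb). On that scale Pgf led the ligands with NC at 10.97 ± 1.07, followed by Vegfb at 9.91 ± 1.04, Vegfc at 5.35 ± 0.0580 and Vegfa at 4.82 ± 0.319 (SD, n = 3). The library ranges of Pgf and Vegfb overlapped. With miR-497 the order was Pgf at 19.4 ± 1.25, Vegfc at 10.5 ± 0.347, Vegfb at 3.63 ± 1.05 and Vegfa at 2.13 ± 0.213, and no neighbours overlapped. The order of Vegfc and Vegfa with NC depends on the length used: per kb of the longest transcript, Vegfa had 5.99 and Vegfc 5.35. On that length the NC ranges of Pgf (13.9 to 16.9) and Vegfb (11.3 to 13.8) no longer overlapped.

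The make-up of the ligand RNA therefore differed between groups in every library. Of the summed level per kb of the 4 ligands, Pgf took 33.0%, 36.3% and 36.6% with NC and 50.8%, 53.8% and 58.7% with miR-497. The share of Vegfc was 16.2% to 18.0% with NC and 28.7% to 29.9% with miR-497. Vegfa took 14.3% to 17.1% with NC and 5.34% to 6.37% with miR-497, and Vegfb 30.2% to 33.1% and 7.19% to 12.9%. The sum itself was 29.7 to 33.3 CPM per kb with NC and 35.3 to 35.99 with miR-497, so the summed ligand RNA was not lower with miR-497 although Vegfa and Vegfb fell. These shares depend on the length used and describe RNA. Secreted protein was not measured.

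**Figure D3:**
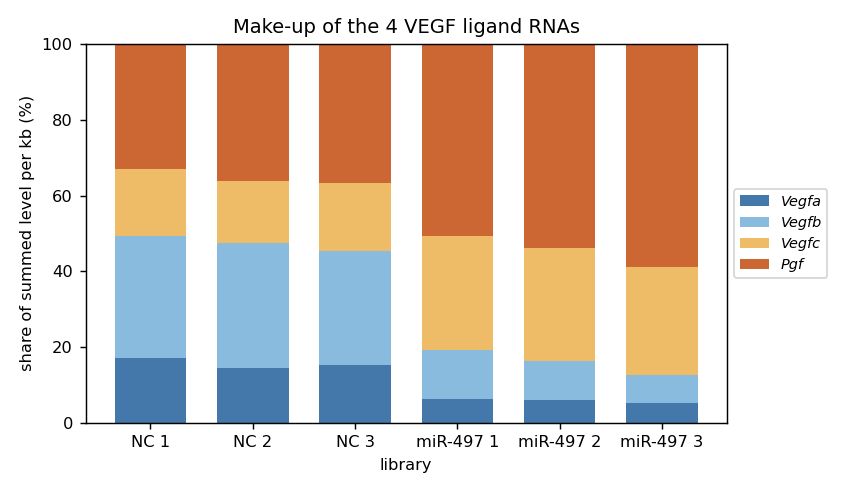
Share of each ligand in the summed level per kb of Vegfa, Vegfb, Vegfc and Pgf (percent, y axis) in each of the 6 libraries (x axis). Pgf makes up 33.0% to 36.6% with NC and 50.8% to 58.7% with miR-497.

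Among the receptors, Flt1 (ENSMUSG00000029648, chr5:147561604-147726011) had 225, 224 and 237 CPM with NC and 169, 184 and 166 CPM with miR-497. The groups lay apart, with 228.8 ± 7.35 against 172.9 ± 9.90 CPM (SD, n = 3). The log2 fold change was -0.40 (SE 0.0552; adjusted p = 1.1e-05 in edgeR), 1.32-fold lower. Whether the full-length or the soluble form, whose annotated 3' UTR holds the seed match shown above, accounts for the fall could not be read from gene counts.

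Kdr (ENSMUSG00000062960, chr5:75932827-75978458), the main signalling receptor, had 1275, 1316 and 1466 CPM with NC and 1297, 1453 and 1303 CPM with miR-497. The groups overlapped fully. Its log2 fold change was -0.0012 (SE 0.0665; adjusted p = 0.99 in edgeR), with a 95% interval from -0.14 to 0.14. The 3' UTR of Kdr holds a 7mer-m8. Among tested genes with a 7mer or 8mer in the longest 3' UTR, 40.9% were called lower. Among those with an 8mer, as in Vegfa, 49.9% were called lower. The share over all tested genes, which include genes without an annotated 3' UTR and genes with a match, was 26.0%. Kdr was also the most abundant member per kb, at 149.7 ± 11.1 with NC and 149.6 ± 9.79 with miR-497 (SD, n = 3), and 98.4% of tested genes had a lower level per kb.

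Flt4 (ENSMUSG00000020357, chr11:49609263-49652739) had 477, 505 and 545 CPM with NC and 499.5, 534 and 504 CPM with miR-497, again with overlapping groups. Its log2 fold change was 0.0093 (SE 0.0590; adjusted p = 0.91 in edgeR; 95% interval -0.12 to 0.13). Of the summed level per kb of the 3 receptors, Kdr took 65.1% to 67.2%, Flt4 26.8% to 28.1% and Flt1 5.64% to 7.72% over the 6 libraries. Flt1 was at 7.14% to 7.72% with NC and 5.64% to 5.76% with miR-497. These shares depend on the length used: per kb of the longest transcript, the NC means were 228 for Kdr, 81.4 for Flt4 and 33.2 for Flt1.

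Nrp1 (ENSMUSG00000025810, chr8:128358604-128503363), a co-receptor for Vegfa and Sema3a, had 175, 168 and 198 CPM with NC and 244, 262 and 248 CPM with miR-497. No miR-497 library overlapped the NC range, and the log2 fold change was 0.48 (SE 0.0613; adjusted p = 5.4e-06 in edgeR), 1.40-fold higher. Nrp2 (ENSMUSG00000025969, chr1:62703285-62818695), which binds Vegfc and Sema3f, had 910, 949 and 1033 CPM with NC and 1080, 1164 and 1112 CPM with miR-497. The nearest libraries of the groups, 1033 and 1080 CPM, lay close to each other. The log2 fold change of Nrp2 was 0.21 (SE 0.0604; adjusted p = 0.007 in edgeR), 1.16-fold higher, and without NC library 2 it was 0.20 with an adjusted p of 0.064. With the replicate number as a block plus offsets for GC and length it was 0.22, with an edgeR adjusted p of 0.084. Per kb, Nrp2 exceeded Nrp1 in each library and took 78.5% to 82.3% of the summed level of both. That share depends on the length used: per kb of the longest transcript, the NC means were 143 for Nrp2 and 49.5 for Nrp1.

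**Figure D4:**
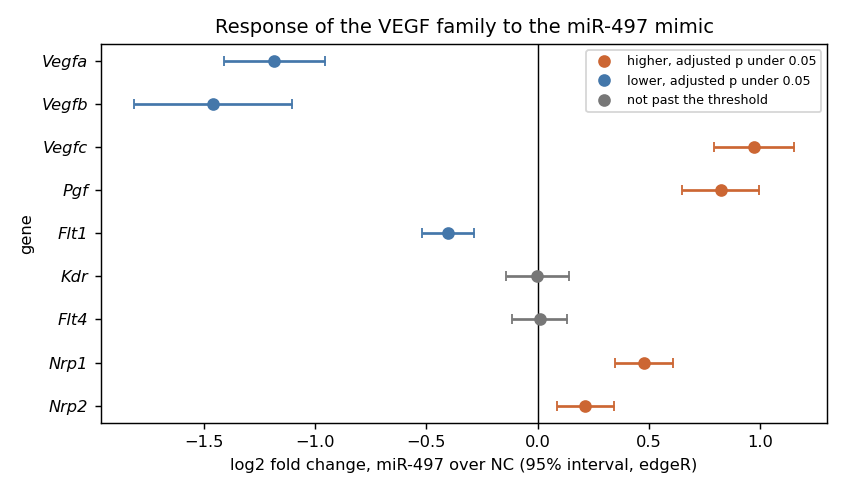
Log2 fold change of each VEGF family gene (x axis, miR-497 over NC) with its 95% interval from edgeR. Vegfa (-1.18), Vegfb (-1.46) and Flt1 (-0.40) lie below 0, Vegfc (0.98), Pgf (0.82), Nrp1 (0.48) and Nrp2 (0.21) above, and the intervals of Kdr and Flt4 include 0.

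Over the 9 members, receptors and neuropilins were more abundant per kb than ligands with NC, in the order Kdr, Nrp2, Flt4, Nrp1, Flt1, Pgf, Vegfb, Vegfc and Vegfa. Nrp1 and Flt1 overlapped in their library ranges there. With miR-497, Pgf at 18.2 to 20.7 CPM per kb lay above Flt1 at 12.3 to 13.6. Both of these readings depend on the length used. Per kb of the longest transcript, Nrp1 had 46.2 to 54.2 and Flt1 32.5 to 34.4 with NC, with no overlap, while with miR-497 the ranges of Pgf (25.4 to 28.9) and Flt1 (24.1 to 26.7) overlapped. The groups did not overlap in CPM for 7 of the 9 members, against 57.4% of all tested genes. No exon base of any member is covered by an opposite-strand gene in the annotation. In bulk RNA, fewer cells that express a gene and less RNA per cell cannot be told apart.

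As a check of the label, 15 of 16 endothelial markers passed the filter on low counts, led by Pecam1 at 3554 CPM and Cdh5 at 2169 CPM with NC. Of these 15, 8 were higher with miR-497 in edgeR, with Emcn and Cldn5 higher by at least 2-fold. The 5 lower ones were Pecam1, Egfl7, Esam, Eng and Mmrn2. Egfl7 had the lowest log2 fold change, -0.94, with 211 CPM with NC and 110 CPM with miR-497 (edgeR adjusted p = 4.5e-08). The median log2 fold change of the 15 was 0.15. For comparison, 23.8% of all tested genes were called higher and 26.0% lower. Sox17 was at or near 0. The summed endothelial level was 10075 to 10627 CPM with NC and 9715 to 10064 CPM with miR-497. Other lists summed to far less. Fibroblast markers (7 of 9 tested, Lum at 0) had 345 to 369 CPM with NC and 482 to 587 CPM with miR-497, led by Col1a2. Of them 3 were higher (Col1a1, Col1a2 and Postn) and 3 lower (Col3a1, Thy1 and Pdgfrb) in edgeR. The markers named here were chosen after their values were seen. Mural markers (7 of 8 tested) had 59.2 to 62.9 and 90.9 to 99.7 CPM, led by Acta2. Among them Acta2 and Tagln were higher in edgeR, and the other tested ones were not called. Macrophage and leukocyte markers (4 of 8 tested, Itgam at 0) had 12.1 to 13.2 and 18.1 to 23.3 CPM, led by Cd68. Of those tested, only Cd68 was called in edgeR, with 8.25 CPM with NC and 17.5 CPM with miR-497. Csf1r, Lyz2 and Cd14 had log2 fold changes of -0.21, -1.73 and -0.18. Lymphatic markers (5 of 6 tested, Ccl21a at 0) had 117 to 126 and 106 to 124 CPM, led by Mmrn1. In this list Prox1 was higher (log2 fold change 0.60, edgeR adjusted p = 8.1e-05) and Mmrn1 lower (-0.31, edgeR adjusted p = 0.0042). Lyve1, Pdpn and Reln were not called. Epithelial markers (2 of 7 tested) had no more than 2.03 CPM, led by Cldn4 with NC and by Cdh1 with miR-497. Whether the genes listed at 0 were not expressed or not counted could not be settled. Mitochondrially encoded genes took 2.03% to 2.15% of counts with NC and 2.94% to 3.77% with miR-497. The part of these shifts in the VEGF family values was not tested.

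Genes that act around the VEGF family were then read from 5 lists. The counts by direction stand beside 23.8% called higher and 26.0% called lower over all tested genes. Of 51 tested genes of receptor signalling, 15 were higher and 13 lower, with a median log2 fold change of 0.049 against -0.019 for all tested genes. The split was 23 to 13 with GC and length offsets and 22 to 12 with upper-quartile scaling. Those settings moved the whole table upward as well. Of all called genes, 47.8% were higher in the main fit, 54.3% with the offsets and 53.9% with upper-quartile scaling. The adaptor Gab1 rose from 30.8 ± 2.66 to 67.9 ± 3.19 CPM (SD, n = 3), by 1.14 on the log2 scale (edgeR adjusted p = 2.5e-09). Cbl, a ubiquitin ligase that promotes receptor turnover, rose by 0.64 (edgeR adjusted p = 7.8e-08). The kinase gene Mapk3, which encodes Erk1, fell from 134 ± 2.15 to 50.7 ± 4.07 CPM (log2 fold change -1.40, edgeR adjusted p = 3e-11). Plcg1, the phospholipase that Kdr activates, had 0.26 with an adjusted p of 0.11, and Nos3, the endothelial nitric oxide synthase, rose by 0.17 (edgeR adjusted p = 0.023).

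Among 15 tested neuropilin partners, 4 were higher and 7 lower, and the median log2 fold change was -0.14. Sema3g rose from 202 ± 10.6 to 386 ± 12.7 CPM (log2 fold change 0.94, edgeR adjusted p = 6.4e-10) and Sema3c rose from 10.8 ± 0.960 to 21.4 ± 2.18 CPM (0.98, edgeR adjusted p = 9.1e-07). In the other direction, Sema3e fell from 80.1 ± 3.84 to 31.5 ± 1.54 CPM (-1.35, edgeR adjusted p = 1.2e-10). Plxna2, a plexin that signals with neuropilins, fell by 1.25 on the log2 scale (edgeR adjusted p = 5.1e-10). The semaphorins of this list, secreted guidance factors, therefore moved in both directions while both neuropilins rose.

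Of 16 tested genes of the hypoxia-inducible factor system, the oxygen-sensing pathway that drives Vegfa transcription, 7 were higher and 4 lower, with a median of 0.071. Hif1a was listed at 0 in each library, and no reading of it is made here, while Epas1, which encodes HIF-2α, had 183 ± 6.17 CPM with NC and 187 ± 6.58 CPM with miR-497 (edgeR adjusted p = 0.67). Vhl, which marks HIF for degradation, rose by 0.63 (edgeR adjusted p = 3.6e-07), and its partner Elob rose by 0.49 (edgeR adjusted p = 4.4e-06). Cul2, the scaffold of the same ubiquitin ligase, fell by 0.78 (edgeR adjusted p = 2.8e-08), as did the prolyl hydroxylase Egln2, by 0.94 (edgeR adjusted p = 1.1e-08).

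Other vessel growth factor genes were called in equal numbers, 10 higher and 10 lower of 25 tested. Vash2, which encodes a vasohibin, rose by 0.70 (edgeR adjusted p = 2.4e-07) and Thbs2, which encodes a matrix protein that restrains vessel growth, by 0.64 (edgeR adjusted p = 3.5e-06). The matricellular genes Ccn2 and Ccn1 fell by 1.36 (edgeR adjusted p = 8.8e-12) and by 0.73 (edgeR adjusted p = 5.4e-08). Of 21 tested genes that VEGF induces in endothelial cells, 4 were higher and 11 lower, with a median of -0.32. This list includes Flt1 itself. For all tested genes the shares were 23.8% higher and 26.0% lower, with a median of -0.019. The immediate early gene Egr1 fell from 54.9 ± 1.88 to 16.9 ± 1.03 CPM (-1.69, edgeR adjusted p = 2.1e-11) and the adhesion gene Sele fell from 191 ± 10.4 to 89.2 ± 3.98 CPM (-1.10, edgeR adjusted p = 1.5e-10). Rcan1, a calcineurin regulator, rose by 0.89 (edgeR adjusted p = 6e-08) and the chemokine receptor Cxcr4 by 0.99 (edgeR adjusted p = 1e-09). In either direction, 28 of 51, 11 of 15, 11 of 16, 20 of 25 and 15 of 21 genes were called in the 5 lists in the order given, beside 49.8% of all tested genes, and no list was tested against the rest.

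**Figure D5:**
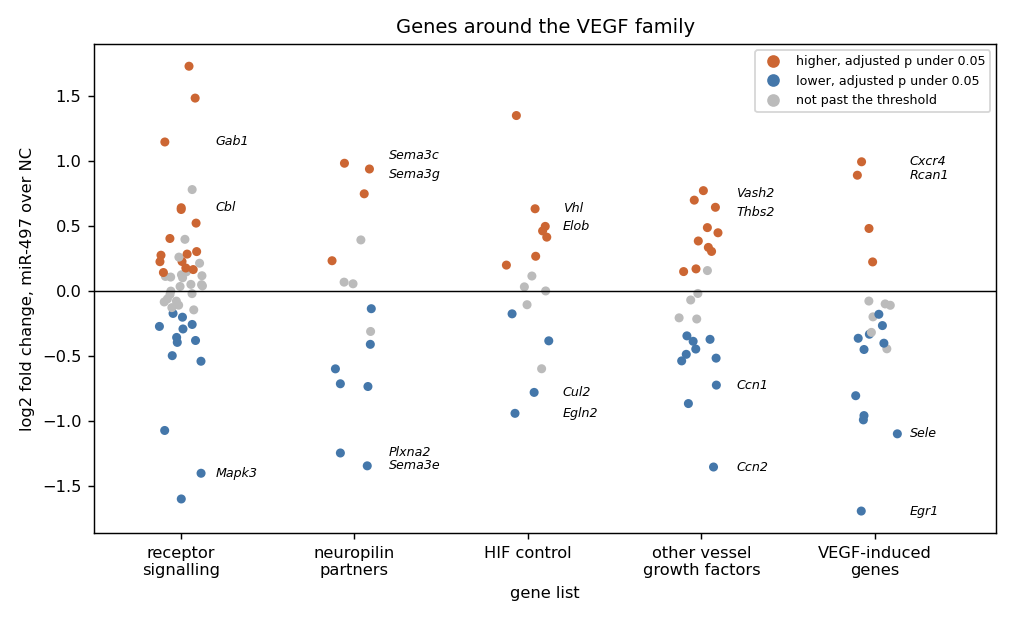
Log2 fold change (y axis, miR-497 over NC) of each tested gene in 5 lists around the VEGF family (x axis). Points are genes, coloured by direction where the adjusted p was under 0.05, and labels mark genes named in the text, among them Gab1 (1.14), Sema3e (-1.35) and Egr1 (-1.69).

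The genes most alike in pattern to the most abundant ligand and receptor were sought among 10333 genes by Pearson correlation of log2 CPM over the 6 libraries, which form 2 groups, so that r for Pgf mostly reflects the difference between groups. For Pgf these were Ift81 (r = 0.998), Ngly1 (0.998) and Cyth3 (0.997). For Kdr they were Cdk20 (0.985), Cttnbp2nl (0.981) and Gm4149 (0.981). With 10333 genes compared over 6 libraries, values of r this high can also arise by chance. Their log2 fold changes were 0.61, 0.25 and 0.30 for the 3 genes like Pgf and -0.025, 0.011 and 0.52 for those like Kdr. The value of 0.52, for Gm4149, was not called (edgeR adjusted p = 0.73). No test was made of these likenesses.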

How the data were processed

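The deposited table holds raw counts of reads per Ensembl gene, made by the authors and not normalized. Per the submitters' processing notes, STAR 2.5.4b, featureCounts of Subread 1.6.1, edgeR 3.32.1 and the build GRCm38 were used, with no roles given. The annotation release, strand setting and handling of multiply aligned reads are not given in the sources used here. Groups and replicate numbers came from the titles. GENCODE M21 gave symbols for 55141 of 55401 identifiers, exon lengths and transcripts.

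From these counts, edgeR 4.0.16 in R 4.3.3 was run on the whole table, with filterByExpr (minimum count 10, minimum total 15), TMM scaling, a 2-sided quasi-likelihood F-test with group as the only term and Benjamini-Hochberg adjustment over 14661 genes. SE is the size of the log2 fold change divided by the square root of F. Every member was described. From each list, the 2 largest rises and 2 largest falls past the threshold at a mean log2 CPM of at least 2 were named, except for 1 result that is not reported here; Plcg1, Nos3, Epas1 and Hif1a were chosen after their values were seen. Log2 CPM used a prior count of 2. Members and lists were chosen with earlier results of these data known. Alternatives were other scalings and filters, DESeq2 1.42.0, limma 3.58.1 voom, a replicate block, offsets for GC content and length, and leaving out each library. On counts simulated for this comparison (14466 genes tested), 40 of 50 genes changed 1.5-fold and 48 of 50 changed 2-fold were recovered, with 6 false calls. Only 50 genes were changed at each fold there, while 49.8% of tested genes were called in the data. The recovery and false calls may therefore not carry over to the data. No protein sequence was used here.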

Additional observations from a re-analysis of the deposited data

How the results depend on the processing

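The 15 alternatives kept direction and side of the threshold for Vegfa (-1.24 to -1.10), Vegfb (-1.67 to -1.26), Vegfc (0.96 to 1.03), Pgf (0.75 to 0.90), Flt1 (-0.45 to -0.36) and Nrp1 (0.43 to 0.56), and for the 20 genes that the naming rule took from the lists. Nrp2 no longer passed with the replicate block plus offsets for GC and length (0.22, edgeR adjusted p = 0.084), and leaving out 1 library gave 0.16 to 0.28. Its adjusted p over the alternatives ran from 0.00048 to 0.084. The cause was not tested. Kdr, not called under any of them, changed sign with DESeq2 size factors and the DESeq2 Wald test (0.014 each), upper-quartile scaling (0.045), a mean count of at least 50 (0.0077), GC and length offsets (0.019) and the replicate block with those offsets (0.020), and ran from -0.056 to 0.071 without single libraries. Flt4 ran from -0.047 to 0.0715 over the same leave-one-out fits. The count of higher members was 3 or 4 and that of lower members 3 throughout. Receptor signalling genes called higher moved from 15 to 23 with GC and length offsets. The share of all called genes that were higher moved from 47.8% to 54.3% between the same fits. With the longest transcript as length, NC levels per kb were 5.99 for Vegfa, 12.4 for Vegfb, 15.3 for Pgf, 228 for Kdr, 33.2 for Flt1, 81.4 for Flt4, 49.5 for Nrp1 and 143 for Nrp2. In the shortest 3' UTR, Vegfa (27 bases) and Flt1 (2616 bases) held no 7mer or 8mer. That Vegfa transcript is annotated without a 5' UTR, and the Vegfa transcript with a 3' UTR of 315 bases held a match.

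Replicate numbers are shared between groups, but the deviations of same-numbered libraries had correlations of -0.12, -0.035 and -0.13, so the numbers were not taken as pairs, and 0 of 6 libraries correlated best with its own number. With the replicate block, 4 members were higher and 3 lower.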
